A study of Mus musculus with 16 samples.

Results

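Enzymes that break down amino acids in liver were compared between db/db mice given a GFP vector and db/db mice given an arcA vector. The set was named by symbol, as 32 genes of the tyrosine, tryptophan, serine, histidine, proline, lysine, glutamine, branched-chain, propionate, glycine and cysteine branches and the transaminases. All 32 symbols were found among the 40324 of the count table, and all 32 were among the 14476 genes with enough counts to test. All animals were db/db littermates. Mice of this genotype have no functional leptin receptor and develop obesity and diabetes. At about 5 weeks of age they received an adeno-associated virus (AAV8) encoding GFP (8 libraries) or AAV8 encoding arcA (8 libraries). Livers came from mice of 10 weeks, about 5 weeks after injection. The titles number the libraries within a group, and each was taken as 1 liver. The promoter of the vectors and the sex of the mice are not given in the labels, and neither is what arcA encodes. It is the name of a bacterial arginine deiminase gene, among others.

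The liver is the main organ in which most essential amino acids are oxidised. The branches open with different chemistry, such as transfer of the amino group for tyrosine, an oxygenase for tryptophan and a lyase for histidine, and end in intermediates of the citric acid cycle, ketone bodies or glucose. The liver has little of the first enzyme of branched-chain breakdown, so the keto acids made in muscle are oxidised there by the branched-chain keto acid dehydrogenase complex and the mitochondrial enzymes after it. Many of these enzymes are most abundant in periportal hepatocytes, whereas glutamine synthetase (Glul) is made in the hepatocytes around the central vein.

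Libraries held 28912561 to 53520828 counts, and no member had fewer than 401 counts in any library. The 19 hepatocyte markers were all detected and summed to 104000 to 116000 CPM (counts scaled to the same effective library size) in GFP livers and 103000 to 136000 in arcA livers. Acinar markers of the pancreas were at or near 0, with 2 of 5 at 0 in every library. GFP 2, 3 and 5 stood apart by 11.8% to 19.4% of counts on Gm42418, which overlaps ribosomal RNA sequence, against 2.29% to 7.37% elsewhere. The labels do not say outright that each library is a separate animal, so the p-values measure the spread between these libraries, part of which may be technical. Markers of T cells, macrophages and stellate cells were lower with arcA: the summed ranges were 5.87 to 12.2 against 0.45 to 2.06 CPM for 8 T cell genes, 183 to 306 against 79.5 to 255 CPM for 10 macrophage and monocyte genes, and 241 to 312 against 155 to 220 CPM for 7 stellate cell and fibroblast genes.

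Of the 32 amino acid breakdown enzymes, 5 rose in arcA livers and 0 fell: Mccc2 and Ivd of leucine breakdown, Pccb and Mut of the propionate route, and Uroc1 of histidine breakdown. Rises were called for 4.27% of the 14476 genes tested and falls for 6.57% (edgeR quasi-likelihood test, Benjamini-Hochberg adjusted p under 0.05, arcA over GFP). The rises measured 1.12-fold to 1.18-fold. The log2 fold change was above 0 for 28 members and below 0 for 4, with a median of 0.136, beside 0.009 over all genes tested and 0.188 over the 19 hepatocyte markers. The members' median in single libraries had an SD of 0.108 on the log2 scale within groups. An unadjusted p under 0.05 was found for 12 of the 32 members and for 24.9% of all genes. For 0 of the 32 did the 2 groups fail to overlap, where every arcA library lay above every GFP library for 0.566% of genes and below for 1.2%. In bulk liver, more hepatocytes in a piece and more of these transcripts in each hepatocyte cannot be told apart. Scaling the libraries on the hepatocyte markers shifts all genes together. The median of all genes then moved to -0.193 and that of the members to -0.065. Of the members, 0 rose and 3 fell (Glul, Bckdha and Agxt2). On that scale 4143 of the 14476 genes tested were called, most of them lower, and 0.539% of genes rose. Without GFP 7 alone, only Mccc2 passed and the median was 0.08, where 2.83% of all genes rose.

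**Figure D1:**
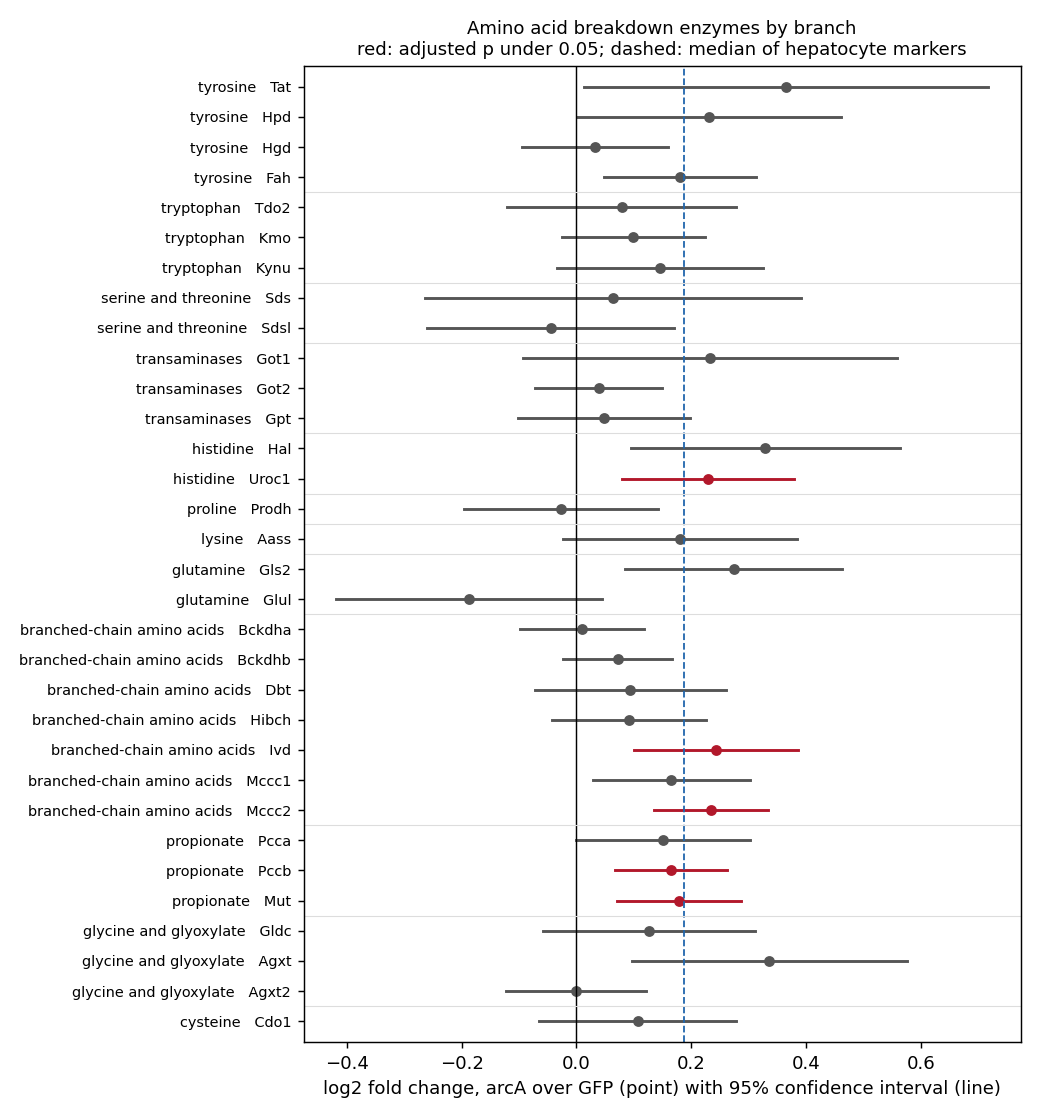
Log2 fold change of each member, arcA over GFP, with its 95% confidence interval from the edgeR fit (8 libraries a group), by branch; red marks the 5 members with an adjusted p under 0.05 and the dashed line the median of 19 hepatocyte markers. Most points lie between 0 and that line, and the widest intervals are those of Tat, Sds and Got1.

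Leucine breakdown held the clearest change. Mccc2 encodes the smaller subunit of methylcrotonoyl-CoA carboxylase, the biotin enzyme of leucine breakdown (chromosome 13, 99948530 to 100015639, minus strand, GRCm38). It was lowest at 67.1, had a median of 73.7 and reached 81.3 CPM in GFP livers, against 79.9, 88.9 and 95.3 CPM in arcA livers. All arcA libraries but arcA 3 lay above the highest GFP library, GFP 8. Mccc2 rose by 0.23 (SE 0.0476, adjusted p = 0.00331, edgeR), from 74.5 ± 4.45 to 87.7 ± 4.95 CPM (SD, n = 8 each), with all 8 arcA livers above the middle of the GFP values. It passed in all 16 edgeR fits without 1 library, where its adjusted p reached 0.0103. Ivd, isovaleryl-CoA dehydrogenase, works one step earlier (chromosome 2, 118861954 to 118882909, plus strand). Its lowest, median and highest values were 165, 197 and 236 CPM with GFP and 200, 240 and 257 CPM with arcA. All arcA livers lay above the GFP median, 6 of them above every GFP liver, and arcA 4 and arcA 8 lay within the GFP range. Ivd rose by 0.24 (SE 0.0686, adjusted p = 0.0264, edgeR), and the call was lost in 9 of 16 fits without 1 library (adjusted p up to 0.0656). Mccc1 encodes the biotin-carrying partner of Mccc2. It had a log2 fold change of 0.17 (95% interval 0.03 to 0.30, adjusted p = 0.114, edgeR). The span of Mccc1 overlaps 4 other genes, among them 2 on the other strand that were counted: Gm15952 had 467 counts in all GFP livers together and 608 in all arcA livers, and Mccc1os had 39 and 87. The ratio of Mccc2 to Mccc1 counts within a library, which no scaling can move, had a mean log2 value of 0.296 ± 0.081 with GFP and 0.364 ± 0.078 with arcA (SD, n = 8 each). That difference of 0.069 did not pass (exact two-sided permutation test, p = 0.106, and 0.317 adjusted over 6 such ratios, which were chosen after the values were seen).

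The propionate route takes up the carbon of valine, isoleucine, threonine and methionine. Pccb, a subunit of propionyl-CoA carboxylase (chromosome 9, 100982032 to 101034898, minus strand), was 207, 220 and 229 CPM at its lowest, median and highest in GFP livers, and 222, 248 and 268 CPM in arcA livers. The GFP livers were close together, and 7 of 8 arcA livers lay above all of them, the exception being arcA 8. Pccb rose by 0.16 (SE 0.0467, adjusted p = 0.0272, edgeR), a 1.12-fold change. Mut, methylmalonyl-CoA mutase (chromosome 17, 40934685 to 40961988, plus strand), ran from 124 over a median of 133 to 153 CPM with GFP, and from 140 over 153 to 163 CPM with arcA. Of the GFP livers, only GFP 8 exceeded the lowest arcA liver. Mut rose by 0.18 (SE 0.0518, adjusted p = 0.0315, edgeR). It shares 363 bases with Cenpq on the other strand, a gene with 1088 counts in all GFP livers together and 1105 in all arcA livers. With 1 library left out, Pccb lost its call in 9 of 16 fits and Mut in 12, and their adjusted p reached 0.0691 and 0.0824 (edgeR). Of the 32 members, 17 overlap another annotated gene, and Mut is the only one of the 5 that rose to do so. Pcca, the biotin-carrying subunit, shares 74878 bases of its span with Ggact on the other strand, which had 12606 counts in all GFP livers together and 15872 in all arcA livers. Pcca had a log2 fold change of 0.15 (adjusted p = 0.203, edgeR), and the log2 ratio of Pccb to Pcca was 0.867 ± 0.094 with GFP and 0.883 ± 0.125 with arcA (SD, n = 8 each; exact permutation p = 0.767).

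Promoters were compared because 5 members rose together, and those of Mccc2, Ivd, Pccb and Uroc1 were in the RefSeq table (GRCm38.p6), which held 24 of the 32 members. Each is printed 5′ to 3′ on the strand of its gene, up to the base before the first annotated exon base, with each CCAAT or its reverse complement in capitals. The regions are chr13:100015640-100015889 (minus strand), chr2:118861744-118861953 (plus), chr9:101034899-101035134 (minus) and chr6:90333039-90333283 (plus).
Mccc2: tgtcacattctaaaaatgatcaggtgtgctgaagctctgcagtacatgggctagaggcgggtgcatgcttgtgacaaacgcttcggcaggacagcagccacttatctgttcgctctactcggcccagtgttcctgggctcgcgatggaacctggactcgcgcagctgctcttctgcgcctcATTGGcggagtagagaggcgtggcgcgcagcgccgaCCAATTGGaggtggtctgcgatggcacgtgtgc
Ivd: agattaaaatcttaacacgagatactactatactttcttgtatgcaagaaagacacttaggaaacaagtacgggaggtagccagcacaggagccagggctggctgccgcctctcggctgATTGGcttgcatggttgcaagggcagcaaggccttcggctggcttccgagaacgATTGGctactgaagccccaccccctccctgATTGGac
Pccb: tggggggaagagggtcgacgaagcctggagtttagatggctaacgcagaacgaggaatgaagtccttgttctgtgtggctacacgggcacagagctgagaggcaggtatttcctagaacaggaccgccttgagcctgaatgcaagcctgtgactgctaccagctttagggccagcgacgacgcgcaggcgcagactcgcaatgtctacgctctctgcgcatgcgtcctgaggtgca
Uroc1: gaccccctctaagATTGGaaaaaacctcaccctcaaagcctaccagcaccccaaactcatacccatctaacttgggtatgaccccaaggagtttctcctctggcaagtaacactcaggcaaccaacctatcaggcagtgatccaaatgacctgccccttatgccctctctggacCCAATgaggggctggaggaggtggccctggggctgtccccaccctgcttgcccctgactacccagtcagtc
In the 250 bases before the start, CCAAT was searched on both strands and was found in 14 of the 24 members (58.3%), against 37.5% of all genes in the table. It was present in Mccc2, Ivd and Uroc1 and not in Pccb. GGGCGG was found in 33.3% of members and 35.4% of all genes, CAAAGTCCA in 1 member, Agxt2, and in 0.451% of all genes, and TGACGTCA in 0 members and 1.77% of all genes. The ratio of observed to expected CpG in these windows was 0.842 in Mccc2, 0.79 in Pccb, 0.49 in Ivd and 0 in Uroc1, beside a median of 0.374 over all promoters, so the members that rose differed widely in this measure.

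The dehydrogenase complex that commits branched-chain keto acids did not change detectably. Bckdha and Bckdhb encode the subunits of its first component and Dbt its core. Their log2 fold changes were 0.01 (95% interval -0.10 to 0.12), 0.07 (-0.02 to 0.17) and 0.09 (-0.07 to 0.26), with adjusted p of 0.937, 0.355 and 0.514 (edgeR). Bckdha was among the steadiest members, with 313 ± 12.2 CPM with GFP and 315 ± 22.4 CPM with arcA (SD, n = 8 each). Hibch, a thioester hydrolase of valine breakdown, had a value of 0.09 (-0.04 to 0.23). The intervals of Bckdha, Bckdhb and Hibch ended below the log2 fold changes of Mccc2 and Ivd, and that of Dbt did not. The intervals themselves overlapped: that of Ivd (0.10 to 0.39) met all of them. That of Mccc2 (0.14 to 0.33) met all but the interval of Bckdha. These differences between genes were not tested. The log2 ratios of Bckdhb and of Dbt to Bckdha differed by 0.064 and 0.093 between groups (exact permutation p = 0.186 and 0.304).

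**Figure D2:**
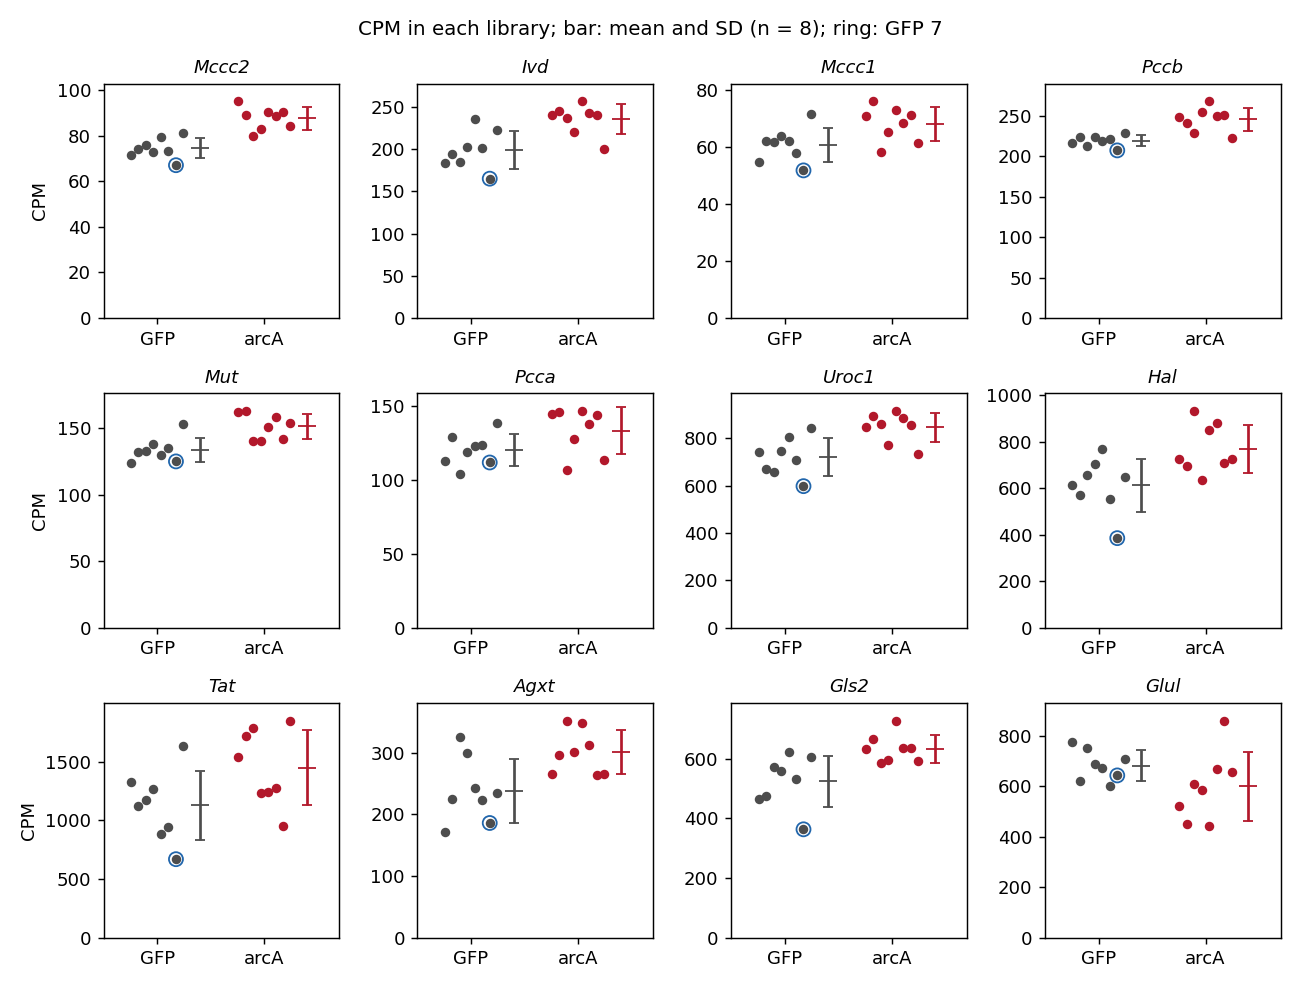
CPM of 12 members in each library, on axes that start at 0, with the mean and SD of each group (n = 8) at the side; the ring marks GFP 7. Mccc2 and Pccb show tight groups with little overlap, Tat and Agxt wide ones, and GFP 7 is the lowest GFP library for Mccc2, Ivd, Mccc1, Pccb, Uroc1, Hal, Tat and Gls2.

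Histidine is opened by histidine ammonia-lyase (Hal) and carried on by urocanase (Uroc1). Uroc1 (chromosome 6, 90333284 to 90364551, plus strand) had 598, 726 and 843 CPM as its lowest, median and highest GFP values and 733, 859 and 916 CPM with arcA. Of the arcA livers, 6 lay above every GFP liver, and arcA 4 and arcA 8 lay within the GFP range. Uroc1 rose by 0.23 (SE 0.072, adjusted p = 0.0451, edgeR), from 722 ± 80.0 to 846 ± 62.8 CPM (SD, n = 8 each), and lost the call in 12 of 16 fits without 1 library (adjusted p up to 0.115). Hal (chromosome 10, 93488768 to 93519304, plus strand) ran from 386 over a median of 632 to 769 CPM with GFP, and from 637 over 727 to 934 CPM with arcA. GFP 7 was far below the others, while arcA 3, 5 and 6 lay above every GFP liver. Its log2 fold change of 0.33 (95% interval 0.09 to 0.56) had an adjusted p of 0.0657 (edgeR). Amdhd1, the next enzyme and no member of the set, lies beside Hal (chromosome 10, 93523338 to 93540033). It rose by 0.37 (SE 0.0759, adjusted p = 0.00395, edgeR), from 227 ± 27.8 to 292 ± 26.7 CPM (SD, n = 8 each), and passed in all 16 fits without 1 library. It was also the only gene among the other breakdown enzymes that still rose when scaled on hepatocyte markers (0.17, adjusted p = 0.0375).

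Tyrosine breakdown runs from tyrosine aminotransferase (Tat) through Hpd and Hgd to fumarylacetoacetase (Fah), and none of the 4 passed. Tat (chromosome 8, 109990437 to 109999803, plus strand) is induced by glucocorticoids and glucagon. It had the largest log2 fold change of the set, 0.36, with a 95% interval of 0.01 to 0.72 and an adjusted p of 0.182 (edgeR). Its GFP values ran from 669 over 1140 to 1630 CPM and its arcA values from 953 over 1410 to 1850 CPM. The groups overlapped over most of their range, with GFP 7 lowest and arcA 8 highest. Hpd, which makes homogentisate, had a value of 0.23 (adjusted p = 0.198), Hgd one of 0.03 (95% interval -0.10 to 0.16) and Fah one of 0.18 (adjusted p = 0.0729, edgeR). In the tryptophan branch, 0 of 3 passed. Tdo2, the dioxygenase that opens the kynurenine pathway, had a log2 fold change of 0.08 (adjusted p = 0.675), Kmo, the monooxygenase, of 0.10 (0.323) and Kynu, kynureninase, of 0.15 (0.316, edgeR).

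Glutamine is hydrolysed in periportal hepatocytes by Gls2 and made again around the central vein by Glul. Gls2 (chromosome 10, 128194457 to 128210004, plus strand) had 363, 544 and 623 CPM as its lowest, median and highest GFP values and 585, 633 and 727 CPM with arcA. Its arcA livers were close together, all above the GFP median, and 6 of 8 GFP livers lay below all of them. The log2 fold change was 0.27 (95% interval 0.09 to 0.46, adjusted p = 0.0564, edgeR). Glul (chromosome 1, 153899944 to 153909723, plus strand) ran from 600 over 680 to 776 CPM with GFP and from 444 over 597 to 860 CPM with arcA. Of the arcA livers, 4 lay below every GFP liver and arcA 7 above every one, and the coefficient of variation was 8.96% with GFP and 22.6% with arcA. Its log2 fold change was -0.19 (95% interval -0.42 to 0.04, adjusted p = 0.319, edgeR). The log2 ratio of Gls2 to Glul within a library was -0.395 ± 0.26 with GFP and 0.106 ± 0.383 with arcA (SD, n = 8 each), higher than the GFP median in 7 of 8 arcA livers. This difference of 0.502 passed over the 6 ratios (exact two-sided permutation test, p = 0.00653, adjusted p = 0.0392), and lay between 0.415 and 0.579 when 1 library was left out (the lowest without arcA 5, the highest without arcA 7). The unadjusted permutation p was 0.000622 without arcA 7, 0.00497 without GFP 5 and 0.00684 to 0.0131 without any other library. Adjustment over the 6 ratios was not repeated in these runs, so the call was not shown to hold in them. The pair was chosen after both values were seen.

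Alanine and aspartate transfer their nitrogen through Gpt and the aspartate aminotransferases Got1 (cytosolic) and Got2 (mitochondrial), and none of the 3 passed. Got1 had a log2 fold change of 0.23 with a wide interval (-0.09 to 0.56), Got2 of 0.04 (-0.07 to 0.15) and Gpt of 0.05 (-0.10 to 0.20). Their adjusted p were 0.386, 0.719 and 0.75 (edgeR). Sds, the serine and threonine dehydratase that feeding and hormones regulate strongly, had 131 ± 31.1 CPM with GFP and 136 ± 27.9 CPM with arcA (SD, n = 8 each). Its relative Sdsl had 14.9 ± 2.39 and 14.4 ± 2.17 CPM. Neither passed, with adjusted p of 0.854 and 0.845 (edgeR), and the interval of Sds reached from -0.26 to 0.39, so changes inside that interval were not detectable with these livers.

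Among the glycine and glyoxylate enzymes, Agxt, which turns glyoxylate into glycine (chromosome 1, 93135240 to 93145421, plus strand), ran from 171 over a median of 229 to 325 CPM with GFP and from 264 over 299 to 352 CPM with arcA. All 8 arcA livers lay above the GFP median, but GFP 3 and GFP 4 lay within the arcA range. Its log2 fold change of 0.34 (95% interval 0.10 to 0.58) had an adjusted p of 0.0673 (edgeR). Gldc, the decarboxylase of the glycine cleavage system, had a value of 0.13 (adjusted p = 0.415), and Agxt2, a mitochondrial aminotransferase, of 0.00 with an interval of -0.12 to 0.12. Cdo1, which opens cysteine oxidation, had a value of 0.11 (adjusted p = 0.463, and 0.06 without GFP 7), Aass of lysine breakdown of 0.18 (0.265) and Prodh of proline oxidation of -0.03 (0.886, edgeR).

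Levels differed far more between members than between groups. Per kilobase of annotated exon (RPKM from the CPM means), Hpd was highest in GFP livers at 1240 RPKM, followed by Cdo1 at 803, Tat at 468, Tdo2 at 341 and Fah at 324 RPKM. Mccc1, at 5.56 RPKM, and Sdsl, at 9.95 RPKM, were lowest. The place of Mccc1 depends on the length used, which joins the exons of all annotated transcripts. That length is 10952 bases for Mccc1 and 2802 for Mccc2. By mean CPM in GFP livers, Mccc1 (60.9) was near Mccc2 (74.5), and Sdsl (14.9) was the lowest member. Of the members that rose, Uroc1 stood at 208, Pccb at 79.0, Ivd at 36.1, Mut at 35.3 and Mccc2 at 26.6 RPKM. Scatter between livers differed as well: the median coefficient of variation was 11.1% with GFP and 9.03% with arcA, but it was 26.4% and 22.1% for Tat, 25.5% and 18.8% for Got1 and 23.8% and 20.4% for Sds, against 3.22% and 5.92% for Pccb and 5.97% and 5.64% for Mccc2. The 4 largest log2 fold changes, those of Tat, Agxt, Hal and Gls2, were not among the 5 that passed.

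Single livers carried part of the pattern. GFP 7 had the lowest GFP value for 21 of 32 members and the lowest of all 16 libraries for 20, and its median deviation from the GFP mean was -0.263 on the log2 scale. The other GFP libraries lay between -0.038 and 0.154 and the arcA libraries between 0.022 and 0.252. GFP 8 was the highest GFP library for 18 members. In the arcA group, arcA 5 was highest for 11 members, and arcA 3 and arcA 8 were lowest for 10 each. GFP 7 also had the highest macrophage and monocyte sum of all libraries (306 CPM) and arcA 5 the lowest (79.5 CPM), and arcA 3 the highest of the arcA group (255 CPM). GFP 8 (217 CPM) and arcA 8 (151 CPM) were at neither end of their groups in this sum. The part of these cells in the members' values was not tested. Without arcA 3 and arcA 8, 8 members rose in place of 5, and without GFP 2, 3 and 5, 3 rose. Rises were called for 3.58% and 2.48% of all genes in these fits.

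**Figure D3:**
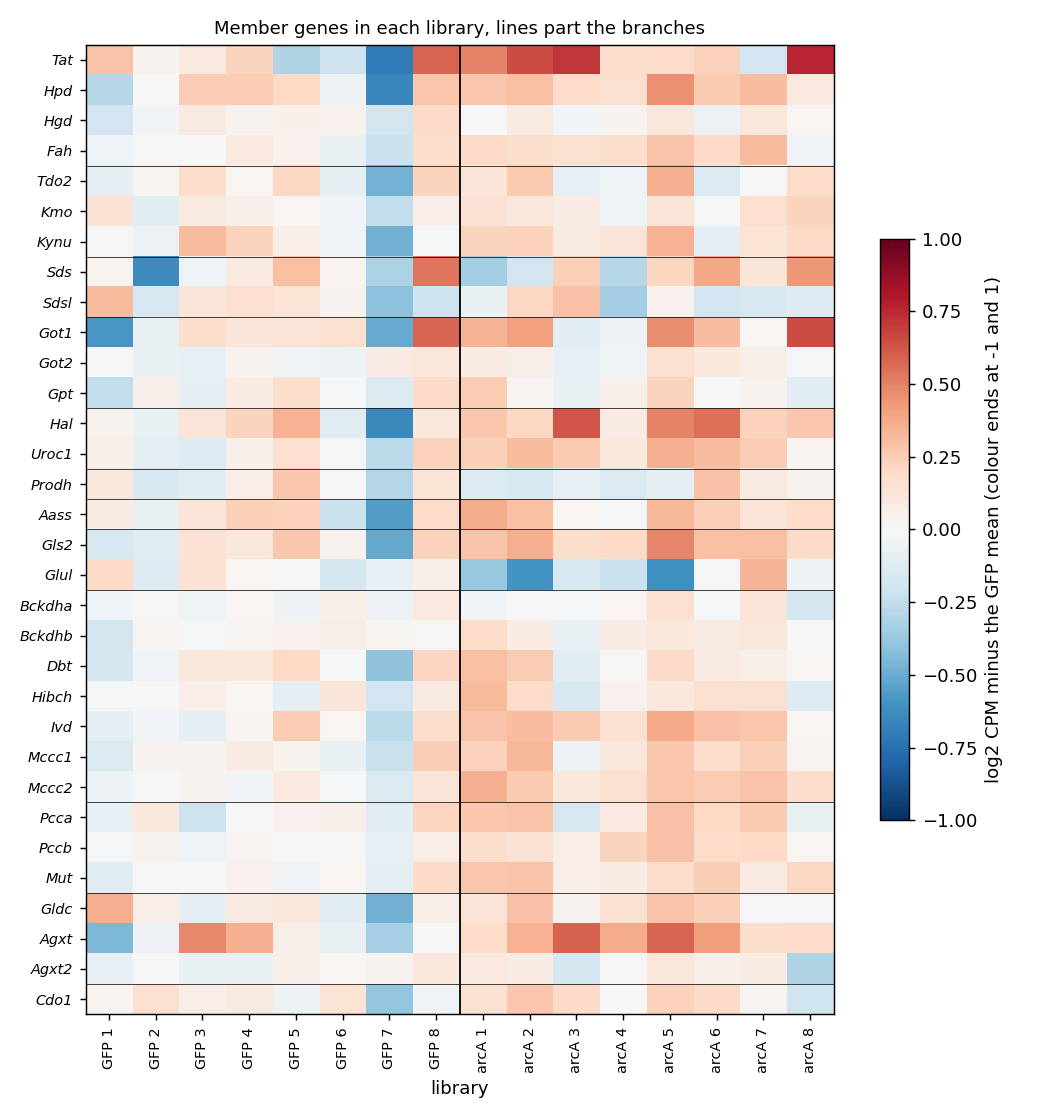
Each member (rows, by branch) in each library (columns), as log2 CPM minus the mean of the 8 GFP libraries. GFP 7 is blue in most rows, Glul is blue in several arcA columns where its neighbour Gls2 is red, and the rows from Bckdha to Mut are paler than those of Tat, Hal and Agxt.

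Other enzymes of the same branches were counted in the same way. Of 61 further symbols (some of them older and newer names of one gene), 58 were in the table and 55 could be tested. Of these, 9 rose and 1 fell, at a median log2 fold change of 0.131, where 4.27% of all genes rose and 6.57% fell. Beside Amdhd1, the rises were those of Aspg, an asparaginase (0.34, adjusted p = 0.0036), Amt, of the glycine cleavage system (0.30, 0.00521), Qdpr, which regenerates the cofactor of aromatic hydroxylases (0.27, 0.0126), and Sqor, of sulfide oxidation (0.25, 0.0129, edgeR). Smaller margins were those of Haao of the kynurenine pathway (0.23, adjusted p = 0.0264), Bcat2, the mitochondrial branched-chain aminotransferase (0.26, 0.0387), Gcsh, the lipoyl carrier of glycine cleavage (0.15, 0.0392), and Gcat of threonine breakdown (0.26, 0.0473, edgeR). These last 4 lost the call in 7, 12, 14 and 13 of 16 fits without 1 library. Amt, Aspg, Qdpr and Sqor passed in all 16. Glud1, glutamate dehydrogenase, had a value of 0.06 (95% interval -0.06 to 0.18) and Bckdk, the kinase that switches off branched-chain keto acid oxidation, of 0.10 (-0.02 to 0.22), and neither passed. Without arcA 3 and arcA 8, 14 of these enzymes rose, where 3.58% of all genes did. Without arcA 5 or arcA 7, 5 of these enzymes rose, where 3.09% and 3.21% of all genes did. On the hepatocyte scale 1 of these enzymes rose and 7 fell. There 4143 of the 14476 genes tested were called, most of them lower, and 0.539% of genes rose.

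The calls near the threshold moved with the test and with single libraries. DESeq2 called 9 members higher, adding Fah, Hal, Gls2 and Agxt, where it called 5.39% of all genes higher. The 16 fits without 1 library called 1 to 6 members, and 2.67% to 4.27% of all genes higher. Mccc2 alone passed without GFP 2, without GFP 7, and without arcA 2, arcA 5 or arcA 6. Of the 10 other alternatives, Mccc2 passed in 9 and was lost on the hepatocyte scale (log2 fold change 0.04, adjusted p = 0.663).

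**Figure D4:**
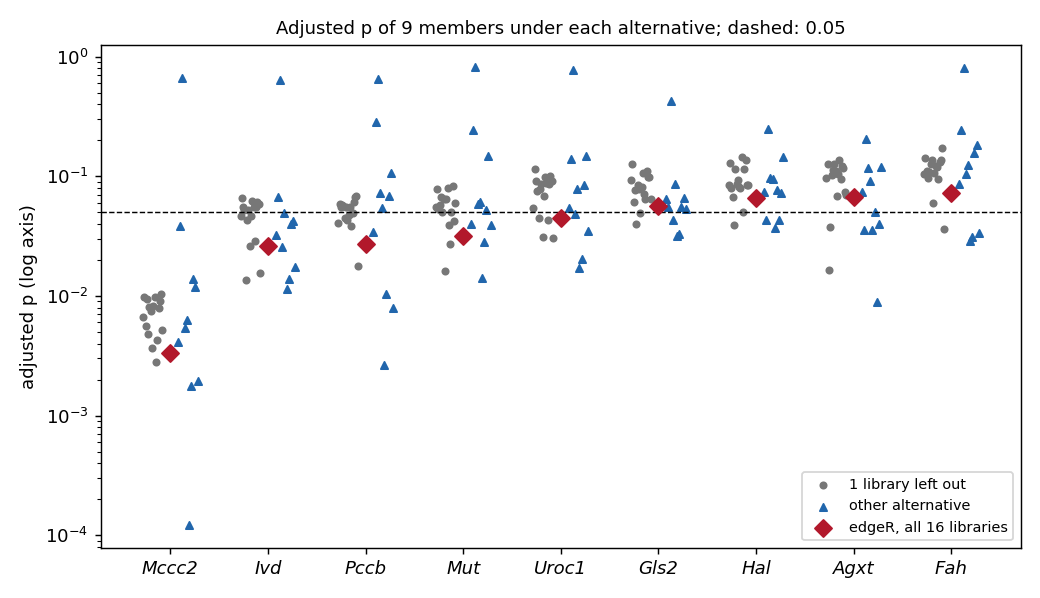
Adjusted p (log axis) of the 5 members that rose and of Gls2, Hal, Agxt and Fah: the diamond is the edgeR fit on all 16 libraries, grey points leave out 1 library each and triangles are the other alternatives. Mccc2 lies below 0.05 in all but 1 setting, and the other 8 straddle it.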

How the data were processed

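Liver RNA was sequenced in 16 libraries, 8 per group, after oligo-dT selection. The authors deposited unnormalized counts, 1 line a gene symbol. The submitters' processing notes name GRCm38, featureCounts 1.4.6-p5 (Subread), STAR 2.5.1a and bcl2fastq. Annotation release and strand setting were not stated there. Where genes overlap on opposite strands, their reads may therefore be mixed. Of 40757 lines, 348 exact copies were removed, and of 85 repeated symbols the line with most counts was kept (47 counts dropped). Of counts from 1 to 20, 69.8% were even, as counting both mates would give. Coordinates and exon lengths came from GENCODE M21 (GRCm38), which held all 40324 symbols. Groups were compared with edgeR 4.0.16 in R 4.3.3 (filterByExpr, TMM scaling, robust quasi-likelihood F test with group as the only term), Benjamini-Hochberg over 14476 genes, threshold 0.05. CPM used TMM-scaled library sizes, log2 CPM a prior count of 2. Ratios of 2 genes used an exact permutation test. Alternatives were other scalings and filters, DESeq2 1.42.0, limma 3.58.1 voom with quality weights, a replicate block and libraries left out. Over 56 pairs of libraries of one group, the chi-square per gene was 20 to 507, so each counted as 1 sample. The pipeline was tested on simulated counts. Members and lists were chosen with earlier results of these data known. The rule named all members, other breakdown enzymes past the threshold (up to 10) with Bckdk, Glud1, Bcat2 and Oat, and in the other lists the genes with the smallest p with Nr3c1, Klf15 and Hnf4a. Some genes that the rule names are not reported here. The ratios and promoter motifs were chosen after values were seen.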

Additional observations from a re-analysis of the deposited data

Results flagged for a closer look

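In 3 of the 64 groups of 8 libraries (32 members, both groups), an extreme library stood far from its neighbours for the spread of its group. Chance marks about 1 in 20 such groups. Bckdhb was 69.5 CPM in GFP 1, and 78.6 to 82.2 CPM in the other GFP livers. Mut was 153 CPM in GFP 8, and 124 to 138 CPM in the others. Cdo1 was 997 CPM in GFP 7, and 1260 to 1470 CPM in the others. Without GFP 1, the log2 fold change of Bckdhb was 0.05 (adjusted p = 0.536, edgeR). Without GFP 7, that of Cdo1 was 0.06 (adjusted p = 0.711, edgeR). Without GFP 8, that of Mut was 0.20 (adjusted p = 0.0162, edgeR).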

How the results depend on the processing

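The number of members that rose (5) was 3 with library size alone, 0 on the hepatocyte marker scale (where 3 fell), 2 when genes needed 1 CPM in 8 libraries, 9 with DESeq2, 3 without GFP 2, 3 and 5 and 8 without arcA 3 and 8, and ran from 1 to 6 when 1 library was left out. No member (0) fell in the other settings. Rises over all genes were 1.75% with library size alone, 0.539% on the hepatocyte scale and 3.38% with the 1 CPM filter. They were 5.39% with DESeq2, 2.48% without GFP 2, 3 and 5 and 3.58% without arcA 3 and 8. Without 1 library they ran from 2.67% to 4.27%. On the hepatocyte scale 4143 of 14476 genes were called, most of them lower. Of other breakdown enzymes, 9 rose and 1 fell; 4 rose with library size alone, 1 on the hepatocyte scale (7 fell), 14 without arcA 3 and 8, and 5 to 10 without 1 library (1 fell in each). The replicate numbers did not pair the livers (correlations of same-numbered deviations -0.0487 to 0.159, over 0.1 in 2 of 8 pairs, 1 of 8 best with its own number). With the replicate block 5 members also rose, Tat, Hal and Agxt in place of Uroc1, Pccb and Mut, where 4.09% of all genes rose. In that fit 1 fasting gene passed. The members' median lay between 0.08 and 0.14 without 1 library.

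Called genes of the background lists changed too: on the hepatocyte scale 4 pericentral, 2 periportal and 1 fasting gene and 2 regulators were called, DESeq2 called 1 periportal and 1 fasting gene, limma voom 1 periportal gene, and 1 fasting gene passed without arcA 3 and 8. On the hepatocyte scale 4143 of the 14476 genes tested were called in either direction. No regulator (0) passed with library size alone, with the 1 CPM filter, or without either set of libraries. Without 1 library, the ranges were 1 to 2 pericentral, 0 to 1 periportal, 0 to 1 fasting genes and 0 to 1 regulators.

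On the hepatocyte scale signs turned for the members' median (-0.065) and for Hgd (-0.165), Fah (-0.02), Tdo2 (-0.113), Kmo (-0.096), Kynu (-0.044), Sds (-0.124), Got2 (-0.165), Gpt (-0.154), Aass (-0.009), Bckdha (-0.195), Bckdhb (-0.131), Dbt (-0.101), Hibch (-0.112), Mccc1 (-0.034), Pcca (-0.057), Pccb (-0.038), Mut (-0.022), Gldc (-0.073), Cdo1 (-0.099), Gcsh (-0.051), Bckdk (-0.11), Glud1 (-0.133), Nr3c1 (-0.168) and Hnf4a (-0.039). Values near 0 changed sign elsewhere: Sds (-0.006 without GFP 2, 3 and 5, -0.031 without arcA 3 and 8), Got2 (-0.005 without GFP 2, 3 and 5), Bckdha (-0.015 with library size alone, -0.013 with the 1 CPM filter and without GFP 2, 3 and 5), Agxt2 (0.000 with no filter, 0.023 with limma voom, 0.064 without arcA 3 and 8), Nr3c1 (-0.014 with limma voom, -0.002 without arcA 3 and 8) and the Pccb to Pcca ratio (-0.032 without arcA 3 and 8). Without 1 library, the ranges that crossed 0 were -0.022 to 0.14 for Sds, -0.11 to 0.006 for Sdsl, -0.091 to 0.007 for Prodh, -0.019 to 0.023 for Bckdha, -0.023 to 0.026 for Agxt2, -0.018 to 0.043 for Nr3c1 and -0.014 to 0.04 for that ratio. The cause was not tested, except that scaling on hepatocyte markers shifts all genes together by construction. Of 1408 values of single genes and ratios, 1189 kept their sign and side of the threshold, 131 lost a call, 31 gained one and 57 turned. In this count the ratios were judged by their permutation p before adjustment over the ratios, and the genes by adjusted p.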

Other observations

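Lists of hepatocyte zones, of hormone and fasting responses and of regulators of these enzymes were described in the same fit. Over all genes tested, edgeR called 4.27% higher and 6.57% lower, and 24.9% had an unadjusted p under 0.05. DESeq2 called 5.39% of genes higher and limma voom 5.47%. Of 11 tested pericentral genes that are no members, 1 rose, the cytochrome Cyp2e1 (0.37, SE 0.0864, adjusted p = 0.00897, edgeR), from 3720 ± 507 to 4800 ± 442 CPM (SD, n = 8 each). It passed in all 16 fits without 1 library and on the hepatocyte scale. Cyp2e1 is itself among the 19 markers that set that scale, as is Hnf4a, so their values there are not independent of it. Oat, ornithine aminotransferase, had a log2 fold change of 0.31 (adjusted p = 0.161), and the list a median of 0.137. Of 10 periportal genes 0 passed with edgeR, 3 by unadjusted p under 0.05, 1 with DESeq2 and 1 with limma voom. The median was 0.191, and the smallest p was that of Ctsc, a lysosomal protease gene (0.49, adjusted p = 0.0614, edgeR). A difference between the 2 zone lists was not tested.

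Of 12 genes listed for responses to fasting or glucocorticoids, not all of them induced by both, 0 passed with edgeR. By unadjusted p under 0.05, 2 of the 12 passed, 1 with DESeq2 and 0 with limma voom. Their median was -0.017, with 6 of 12 above 0. The smallest p was that of the clock repressor gene Nr1d1 (0.49, adjusted p = 0.0977, edgeR). Of 14 regulators of these enzymes, 1 rose and 0 fell, at a median of 0.093, where 4.27% of all genes rose and 6.57% fell. Hnf4a, a hepatocyte transcription factor, had a log2 fold change of 0.15 (adjusted p = 0.221), Klf15, a regulator of amino acid breakdown, of 0.23 (0.189), and Nr3c1, the glucocorticoid receptor, of 0.03 (0.828, edgeR).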
